A study of Mus musculus with 16 samples.

Results

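Keratin-associated protein genes (Krtap genes) were followed across the dorsal skin libraries of 16 mice. The members were all rows of the count tables whose symbol was Krtap followed by a digit, which gave 53 of 23282 rows in 25 numbered subfamilies. The members were chosen by their symbol and no count entered the choice of a row, but the family was taken up with earlier results of these same libraries known, so the calls given here describe the fit and are no independent evidence. Each group held 4 mice with 1 library each, all from wild-type male C57BL/6N mice that arrived at 3 weeks of age and had 1 week of acclimation. Cont mice ate normal chow. LowAhR mice ate a diet low in ligands of the aryl hydrocarbon receptor (AhR) for 12 weeks, and LowAhR+AD mice ate the same diet and had 1% DNCB, a hapten that causes contact dermatitis, put on the dorsal skin from week 2 of the diet for 10 weeks. LowAhR+AD+BJ mice had the diet, DNCB and Bojungikgi-tang extract (BJIKT), a herbal preparation given by gavage at 1 g/kg per day. The paper states that the low AhR ligand diet also came with AhR ligand-free paper bedding, so diet and bedding cannot be told apart. No group had DNCB without the low AhR ligand diet or BJIKT without DNCB. Whether, how or when dorsal hair was removed was not given in the sources used here. Nor was it given whether Cont and LowAhR skin received the solvent of DNCB.

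The hair shaft consists of bundles of hair keratin filaments held in a matrix of keratin-associated proteins, which are cross-linked to the keratins through disulphide bonds. The proteins are small, are encoded by short genes that stand in dense clusters, and are made late in the differentiation of hair matrix cells while a follicle is growing. By composition they fall into high sulfur and ultra-high sulfur proteins, both rich in cysteine, and high glycine-tyrosine proteins, which hold little cysteine. Skin that grows no hair has little of their messenger RNA, because the epidermis between the follicles does not make them. Here subfamilies 6, 7, 8, 19, 20, 21 and 22 were counted as high glycine-tyrosine (14 rows), subfamilies 4, 5, 9 and 17 as ultra-high sulfur (17 rows), and subfamilies 1, 2, 3, 10 to 16, 24, 26 and 27 as high sulfur (20 rows). The 2 rows of subfamily 31 were left without a class. Class followed the subfamily number alone, and protein sequences were not used. Krtap16-1 lies on chromosome 11, but Krtap16-3 lies on chromosome 16 between Krtap19-9b and Krtap22-2, both counted as high glycine-tyrosine. The class of Krtap16-3 is therefore uncertain, and the class values below count it as high sulfur.

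All 53 symbols matched the RefSeq gene table of GRCm38.p6, the assembly also called mm10. The genes stood in 4 clusters, with 23 on chromosome 16 (88610709 to 89571183), 22 on chromosome 11 (99550132 to 99993994), 5 on chromosome 7 (142174532 to 142304503) and 3 on chromosome 10 (77720586 to 77837251). All high glycine-tyrosine genes lay in the cluster on chromosome 16 beside subfamilies 11, 13, 14, 15, 24, 26, 27 and Krtap16-3. The chromosome 7 cluster held subfamily 5 and the chromosome 10 cluster held subfamilies 10 and 12. RefSeq promoter windows were at hand for 48 of the 53 genes. TATAAA, the core of the TATA box, occurred on either strand in the 50 bases before the start in 64.6% of these 48 windows and in 3.78% of 27025 windows of all genes, and in the 250 bases before the start in 79.2% against 13%. CTTTGA, a core motif of the Lef1 and Tcf factors, occurred in 25% against 14% over 250 bases and in 0 of 48 against 2.28% over 50 bases. TATATAAG, which was searched after the windows had been seen, occurred in 14.6% against 0.992% over 250 bases. In the last 100 bases, 3 of the 48 windows held neither TATAAA nor TATATAAG. That count follows in part from the choice of TATATAAG, and no share over all genes was computed beside it. In 31 of the 48 windows, either motif started 25 to 37 bases before the start. A match is a run of letters and not a shown binding site.

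The 100 bases before the start of 7 genes follow, 5′ to 3′ on the strand of the gene, with TATAAA, TATATAAG or their reverse complements in capitals. Krtap8-1 (chr16:89487953-89488052, minus strand) had the highest mean level of the family over the 4 groups, and Krtap15 (chr16:88828909-88829008, plus strand), Krtap6-5 (chr16:89047900-89047999, minus strand) and Krtap3-3 (chr11:99550864-99550963, minus strand) stand for other abundant subfamilies. Krtap3-2 (chr11:99556854-99556953, minus strand) is shown because it was the only member above 10 CPM in all 4 Cont libraries. Krtap31-1 (chr11:99907820-99907919, plus strand) and Krtap31-2 (chr11:99936191-99936290, plus strand) are shown because they form the subfamily without a class and only 4 of the 100 bases differ between them.
Krtap8-1: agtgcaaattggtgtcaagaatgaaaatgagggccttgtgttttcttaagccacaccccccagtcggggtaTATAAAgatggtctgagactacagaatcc
Krtap15: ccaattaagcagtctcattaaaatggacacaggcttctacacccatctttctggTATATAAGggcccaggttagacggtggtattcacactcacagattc
Krtap6-5: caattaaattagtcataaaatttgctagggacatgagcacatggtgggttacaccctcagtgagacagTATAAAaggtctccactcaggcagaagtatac
Krtap3-3: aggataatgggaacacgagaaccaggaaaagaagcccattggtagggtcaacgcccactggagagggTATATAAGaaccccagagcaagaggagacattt
Krtap3-2: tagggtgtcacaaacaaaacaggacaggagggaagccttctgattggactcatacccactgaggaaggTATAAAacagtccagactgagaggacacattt
Krtap31-1: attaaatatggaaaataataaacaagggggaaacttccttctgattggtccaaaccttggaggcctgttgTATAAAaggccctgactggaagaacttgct
Krtap31-2: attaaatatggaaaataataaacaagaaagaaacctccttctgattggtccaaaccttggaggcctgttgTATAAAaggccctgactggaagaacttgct

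The libraries were made with QuantSeq, which reads a short stretch of each transcript next to its poly(A) tail, so a level is not divided by gene length. Library totals ran from 7080508 to 8773876 gene counts in Cont and LowAhR and from 10614393 to 13467477 with DNCB. Levels are given as CPM, counts scaled by the library total and its TMM factor, and a count of 0 allowed up to 0.229 to 0.406 CPM depending on the library, with counting error only. LowAhR+AD replicate 1 stood apart. There, among genes expected at 20 to 40 counts from the rest of its group, 32.6% had no count, against 1.03% to 13.8% in the other libraries, and the results that turned on it are also given without it. In bulk skin, fewer hair follicle cells and less RNA per cell cannot be told apart. Of the 53 rows, 49 passed the filter on low counts, and Krtap5-1, Krtap9-5, Krtap13 and Krtap27-1 were not tested.

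Krtap transcripts ranged from almost none to a main component of the skin libraries. Their summed level was 50.2, 104, 127 and 433 CPM in Cont replicates 1 to 4, and 7241, 88.8, 1043 and 23240 CPM in LowAhR replicates 1 to 4. It was 3083, 41910, 25620 and 38000 CPM in the LowAhR+AD libraries and 21160, 54150, 47350 and 34100 CPM in the LowAhR+AD+BJ libraries. The LowAhR group spanned nearly the whole range by itself, with replicate 2 inside the range of Cont and replicate 4 inside the range of both DNCB groups. As a share of all counts the family took 0.00552% to 0.0449% in Cont, 0.00866% to 2.22% in LowAhR, 0.356% to 4.09% in LowAhR+AD and 2.12% to 4.83% in LowAhR+AD+BJ. The number of Krtap rows with at least 1 count was 5, 15, 34 and 40 in the Cont libraries, 48, 20, 45 and 51 in LowAhR, 45, 53, 51 and 51 in LowAhR+AD and 50, 50, 51 and 49 in LowAhR+AD+BJ. In Cont, 10 members had no count in any library and 4 had a count in every library.

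**Figure D1:**
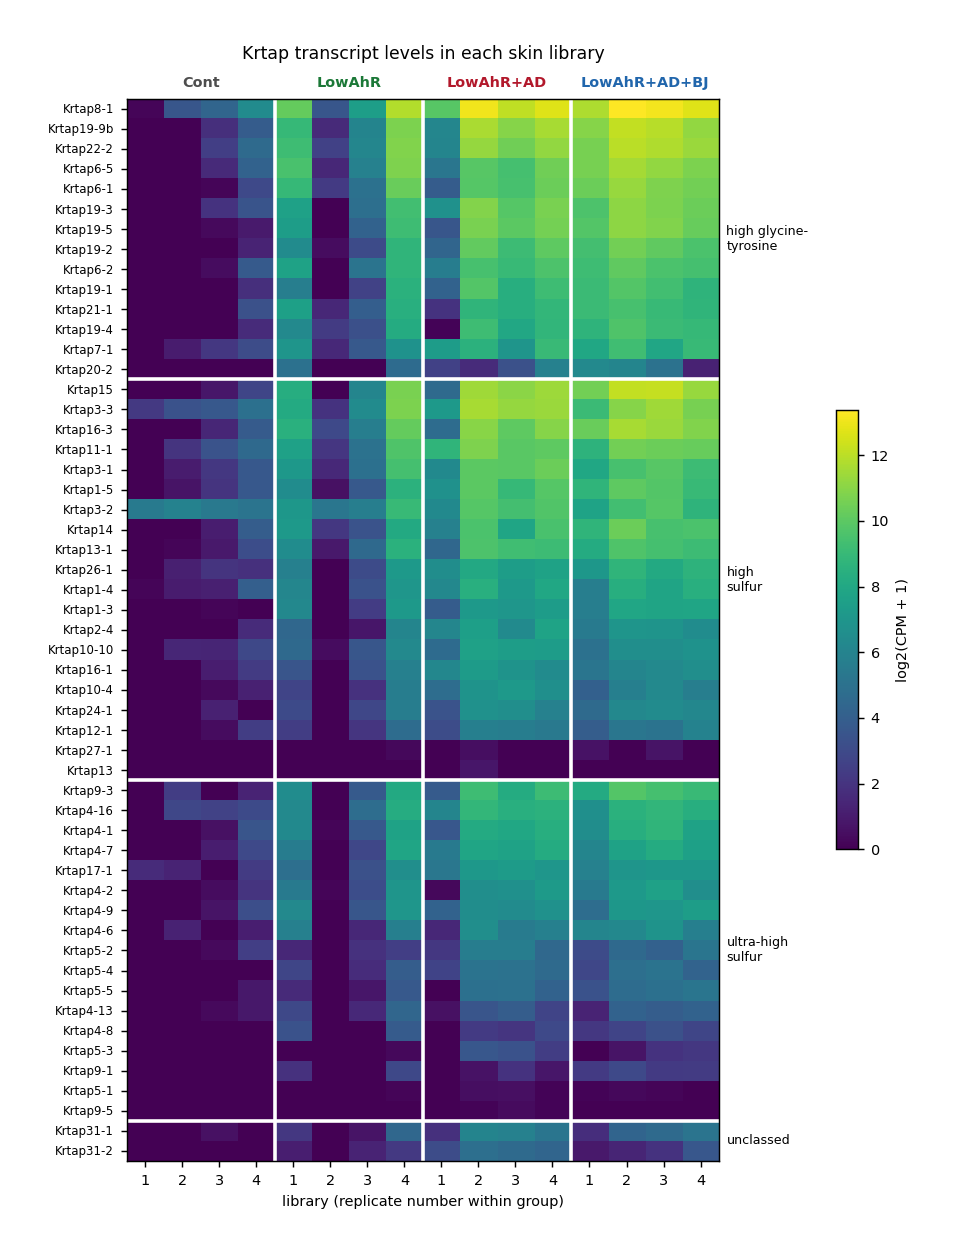
Level of each of the 53 Krtap rows (vertical, ordered by class and mean level) in each of the 16 libraries (horizontal, by group and replicate), coloured by log2(CPM + 1). LowAhR replicate 2 has 20 rows with a count and resembles the Cont columns, while LowAhR replicate 4 has 51 and resembles the DNCB columns, and Krtap3-2 is the row that is bright in all 4 Cont libraries.

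Krtap8-1, a high glycine-tyrosine gene, had the highest mean over the 4 groups, while Krtap3-2 was the top member in Cont replicates 1 to 3 and LowAhR replicate 2. Krtap8-1 had 0.128, 10.9, 19.5 and 87.5 CPM in Cont, 1198, 11.1, 177.7 and 3617 CPM in LowAhR, 938, 8804, 4408 and 6635 CPM in LowAhR+AD and 3434, 10560, 9086 and 6789 CPM in LowAhR+AD+BJ. It ranked 3 among all genes in LowAhR+AD+BJ replicates 2 and 3 and 5 in LowAhR+AD replicates 2 and 4. Krtap19-9b, Krtap15, Krtap22-2, Krtap3-3 and Krtap16-3 followed, and these 6 rows together made up 41.2% to 56.2% of the summed Krtap CPM in the 8 libraries with DNCB.

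The libraries with many Krtap transcripts were also those with many transcripts of other follicle genes. Of 16 listed hair shaft keratin genes, Krt87 had no row, and the others were summed. Their summed level was 22.9, 31.1, 49.4 and 223 CPM in Cont and 1661, 18.1, 342 and 6009 CPM in LowAhR. It was 2303, 18810, 9977 and 12610 CPM in LowAhR+AD and 2924, 9403, 10770 and 7495 CPM in LowAhR+AD+BJ. The order of the LowAhR libraries was that of the Krtap sum. Across the 16 libraries, the log2 level of the 49 tested members correlated with that of the summed other Krtap genes with a Pearson r between 0.698 (Krtap5-3) and 0.995, with a median of 0.967, and 43 reached 0.9. With the group means removed the median r was 0.918. These correlations are a description across 16 libraries that share groups, scaling and depth. Within groups r ran from 0.467 (Krtap5-3) to 0.981.

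**Figure D2:**
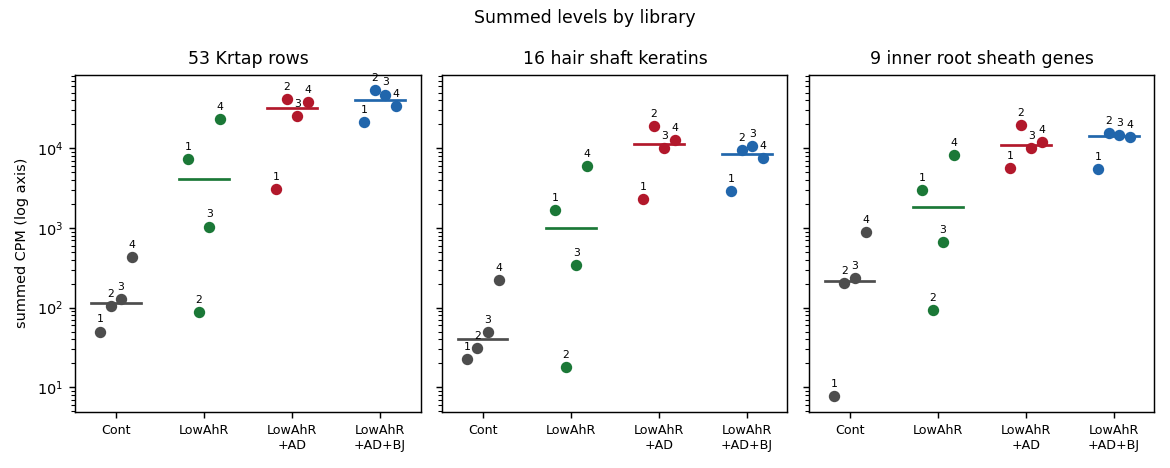
Summed CPM (log axis) of the Krtap rows, of 16 listed hair shaft keratins (Krt87 had no row) and of 9 inner root sheath genes in each library. Points are libraries numbered by replicate and lines are group medians. The LowAhR points spread widely, from 88.8 to 23240 CPM for Krtap, and LowAhR+AD replicate 1 is the lowest of its group.

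In LowAhR+AD against Cont, Krtap transcripts were higher in every class. Of 49 tested members, 48 rose with an adjusted p under 0.05 from edgeR's quasi-likelihood test, where 21.8% of all 14854 tested rows were called in either direction and 12.3% were higher. The median log2 fold change of the members was 7.36 (0.05 over all tested rows), or 6.90 with the members that had no count in Cont set at their lower bound. All 18 tested high sulfur members (median log2 fold change 7.30), 14 of 15 ultra-high sulfur members (6.38), all 14 high glycine-tyrosine members (8.59) and both of subfamily 31 (9.40) rose. With members without a Cont count at their lower bound, these medians were 7.30, 5.96, 8.11 and 6.96. The exception was Krtap9-1, with 0 counts in Cont, 0, 0.574, 2.88 and 0.723 CPM in LowAhR+AD and an edgeR adjusted p of 0.0521. In 40 members every LowAhR+AD library exceeded every Cont library, which held for 12.9% of all tested rows. In each of the other 9, the overlap came from LowAhR+AD replicate 1 alone. Without that library all 49 rose (23.2% of all tested rows called). By limma voom 8 of 49 members rose, while 21.6% of all tested rows were called in either direction. With that tool 21 members had an unadjusted p under 0.05, so the count depended on the tool used. With at least 10 counts required in every library only 2 members could be tested, and both rose (28.7% of all tested rows called). Markers of other skin cells moved in this comparison too. Of 7 skeletal muscle markers 4 fell (summed 4809 to 8475 CPM in Cont and 331 to 2954 CPM in LowAhR+AD), of 4 dermal fibroblast markers 3 fell (27470 to 68620 and 3830 to 21680 CPM), and of 5 markers of the epidermis between follicles 2 rose and 1 fell (4092 to 5172 and 5905 to 12320 CPM). Their part in the result was not tested.

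By size, the members ran from Krtap3-2, with a log2 fold change of 3.79 in LowAhR+AD against Cont, to Krtap19-5, with 11.67. A fold against Cont was for many members a fold against almost nothing, and Cont held no count at all of 6 tested members. Against the limit that 3 counts per library allow, LowAhR+AD was at least 62.3-fold higher for Krtap5-4, 53.1-fold for Krtap31-2, 49.3-fold for Krtap20-2, 16.8-fold for Krtap5-3, 9.13-fold for Krtap4-8 and 2.78-fold for Krtap9-1. Of Krtap1-3 the 4 Cont libraries held 1 count in all, and its level was 0.0309 ± 0.0617 CPM (SD, n = 4) in Cont and 115 ± 69.4 CPM in LowAhR+AD. The lowest adjusted p values from edgeR were those of Krtap31-2 (0.000602), Krtap1-3 (0.000709) and Krtap5-4 (0.000752).

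In LowAhR against Cont, the fitted difference was upward in all 49 tested members, against 7672 of all 14854 tested rows. None of the members passed the threshold. The 6 members without a count in Cont could only be upward. In these 8 libraries alone 37 members passed the filter on low counts, so some members were tested only because the DNCB libraries were included. The median log2 fold change was 5.49 (5.22 with members without a Cont count at their lower bound), against 0.03 over all tested rows, and the lowest adjusted p was 0.0659 from edgeR. By edgeR 0% of all tested rows were called in this comparison. At an unadjusted p under 0.05, 47 of 49 members passed, against 13.7% of all tested rows in either direction. In 36 members 3 of the 4 LowAhR libraries lay above all Cont libraries (9.65% of all tested rows), and in 1 member, Krtap19-4, all 4 did (5.68% of all tested rows). Krtap19-4 had 0, 0, 0 and 2.16 CPM in Cont and 77.0, 3.97, 8.72 and 299 CPM in LowAhR, and is named because of this count. The outcome of the test hung on a single library and on the tool. Without LowAhR replicate 2, 36 of 49 members rose (1.04% of all tested rows called). Without any 1 of the other 7 libraries 0 did. DESeq2 called 38 higher (3.31% of all tested rows called). Limma voom called 0, with 0 members at an unadjusted p under 0.05. A fit of only these 8 libraries called 5 of 37 (1.84% of all tested rows called). The 5 adipocyte markers had upward fitted differences (median log2 fold change 1.45), 4 of them without overlap and 0 called, and their summed level was 1524 to 3443 CPM in Cont and 4709 to 8746 CPM in LowAhR. That of the 7 skeletal muscle markers was 4809 to 8475 and 6227 to 16410 CPM, also with 0 called. Their part in the result was not tested.

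In LowAhR+AD against LowAhR, 3 of 49 members rose and none fell, while 12.6% of all tested rows were called and 6.42% were higher, so the share of members called was near that of all rows. The median log2 fold change of the members was 1.97, and 47 of 49 fitted differences were upward (7724 of all 14854 tested rows). An unadjusted p under 0.05 was found for 12 members (28.1% of all rows). Krtap31-2 had 1.22, 0, 1.56 and 3.70 CPM in LowAhR and 7.63, 28.7, 23.9 and 19.6 CPM in LowAhR+AD, with a log2 fold change of 3.61 ± 0.98 (SE) and an edgeR adjusted p of 0.0261. The groups did not overlap. Krtap5-2, an ultra-high sulfur gene, had 1.76, 0, 2.73 and 4.65 CPM in LowAhR and 3.51, 49.1, 50.1 and 22.2 CPM in LowAhR+AD (log2 fold change 3.76 ± 1.12, edgeR adjusted p = 0.0343), and replicate 1 of LowAhR+AD lay within the LowAhR range. Krtap5-3 had a total of 2 counts in LowAhR, all in replicate 4, and 0, 11.3, 9.48 and 4.42 CPM in LowAhR+AD (edgeR adjusted p = 0.0413). Its log2 fold change of 6.40 rests on those 2 counts and has no meaning as a size. Of the 226 windows of 75 bases in the last 300 bases of the Krtap5-2 transcript, 27.4% also occurred in the gene Gm4553, so its count may hold reads of that gene.

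The other members that were higher in LowAhR+AD than in LowAhR without overlap were Krtap16-1, Krtap2-4 and Krtap7-1. This makes 4 of 49 higher without overlap, against 8.92% of all tested rows, and 0 members lower. The most abundant members were far from the threshold. Krtap8-1 had a log2 fold change of 2.05 ± 1.22, Krtap19-9b 1.90 ± 1.34, Krtap15 1.89 ± 1.42 and Krtap6-5 0.25 ± 1.31, with adjusted p values of 0.285, 0.379, 0.412 and 0.927 from edgeR. The count of members called moved with single libraries. It was 20 without LowAhR replicate 4, 5 without LowAhR+AD replicate 1, 1 without LowAhR replicate 2 or LowAhR+AD replicate 3, and 0 without LowAhR replicate 1, LowAhR replicate 3 or LowAhR+AD replicate 2. Limma voom called 10 members (14.1% of all tested rows called) and a fit of only these 8 libraries called 1 (5.49%).

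Transcripts of other skin cells moved in the same comparison. All 7 skeletal muscle markers fell in LowAhR+AD against LowAhR (summed 6227 to 16410 CPM in LowAhR and 331 to 2954 CPM in LowAhR+AD), as did 4 of 5 adipocyte markers (4709 to 8746 and 209.5 to 2550 CPM) and 2 of 4 dermal fibroblast markers (27610 to 53270 and 3830 to 21680 CPM). Of 5 markers of the epidermis between follicles, Krt14 and Krt5 rose and Krt2 fell (summed 4371 to 5564 and 5905 to 12320 CPM). Their part in the Krtap result was not tested. With the Krtap, hair keratin and inner root sheath rows taken out of the library sizes and the scaling, the same number of members, 3, was called.

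**Figure D3:**
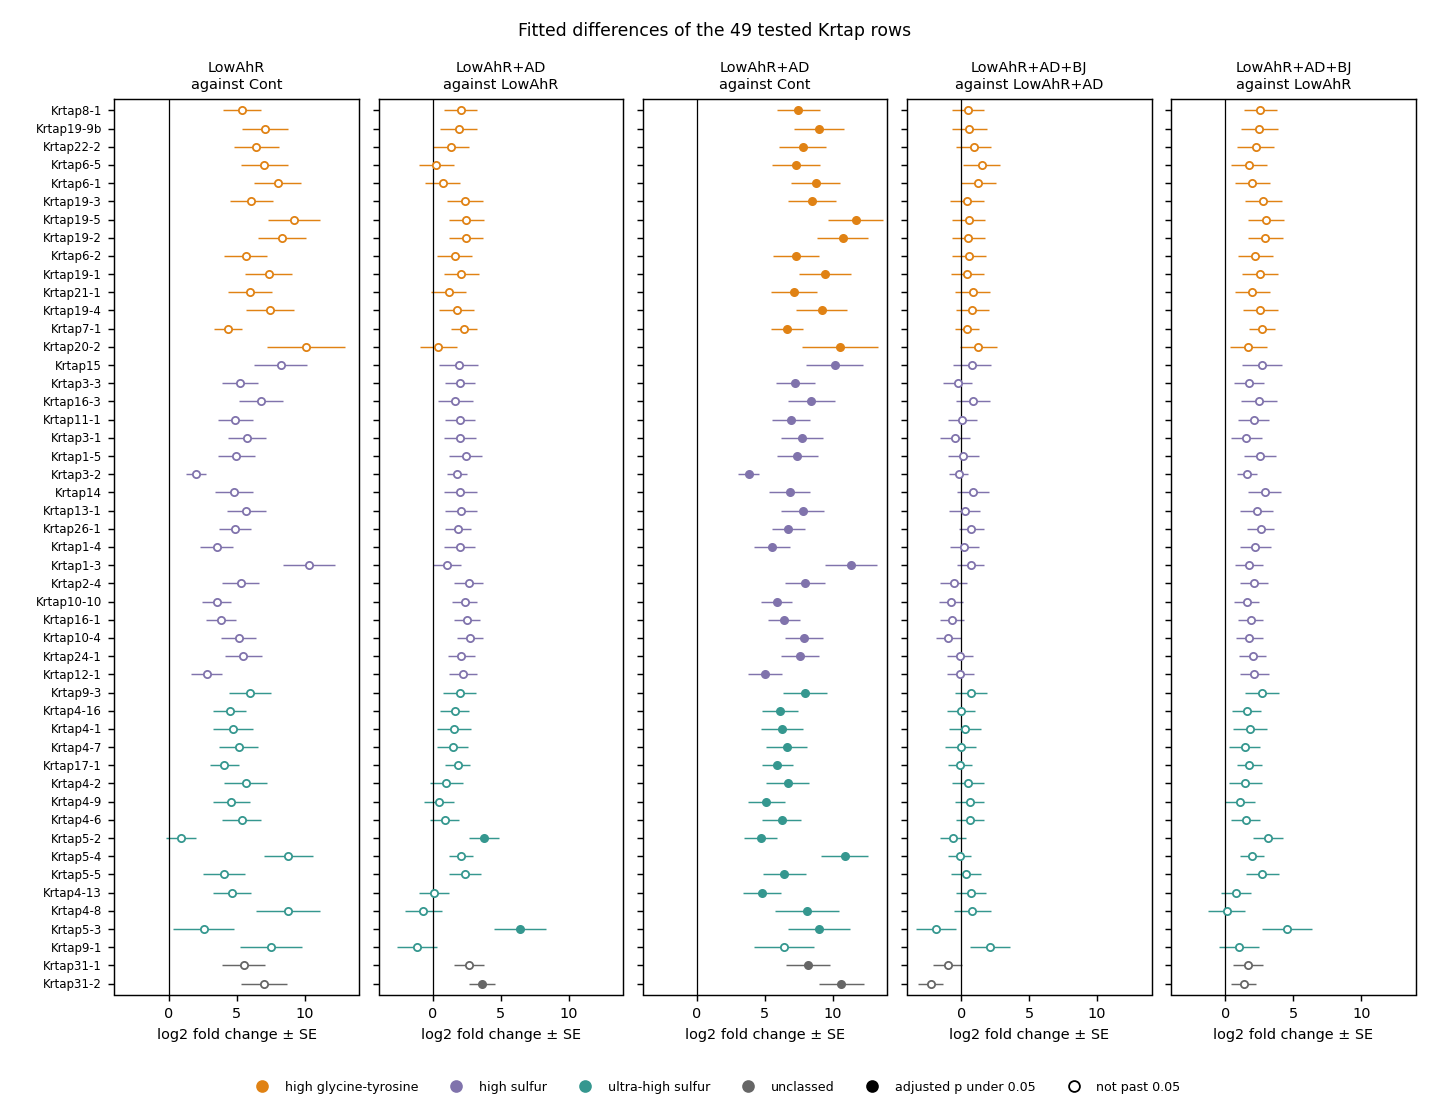
Log2 fold change with its standard error (horizontal) of the 49 tested Krtap rows (vertical, by class and mean level) in the 5 comparisons, from edgeR; filled points had an adjusted p under 0.05. 48 points are filled in LowAhR+AD against Cont, 3 in LowAhR+AD against LowAhR and 0 in the other comparisons.

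In LowAhR+AD+BJ against LowAhR+AD, no member passed the threshold. By edgeR 0% of all tested rows were called, 1 member had an unadjusted p under 0.05 (9.46% of all rows), and DESeq2 and limma voom called 0 members, as did every fit without 1 library. The median log2 fold change of the members was 0.43, with 32 of 49 upward, against 7425 of all 14854 tested rows. By class, all 14 high glycine-tyrosine members were upward (median 0.60, lowest edgeR adjusted p 0.751). Members varied together across the libraries, so these are not 14 separate observations. Of 18 high sulfur members 9 were upward, with a median of 0.00. Of 15 ultra-high sulfur members 9 were upward (median 0.36), and both members of subfamily 31 were downward (median -1.63). Krtap6-5 had 37.6, 957.5, 678 and 1391 CPM in LowAhR+AD and 1551, 3020, 2362 and 1701 CPM in LowAhR+AD+BJ, without overlap (log2 fold change 1.49 ± 1.34, edgeR adjusted p = 0.751). Krtap9-1 was likewise higher without overlap, which makes 2 of 49 members higher without overlap, against 2.42% of all tested rows, and 0 members lower. Krtap31-2 had 7.63, 28.7, 23.9 and 19.6 CPM in LowAhR+AD and 0.913, 1.63, 2.96 and 11.3 CPM in LowAhR+AD+BJ (log2 fold change -2.25 ± 0.91, edgeR adjusted p = 0.503, exact permutation p = 0.0571). Krtap31-1 had 2.60, 63.5, 57.8 and 35.3 CPM against 2.37, 19.04, 23.7 and 34.2 CPM (edgeR adjusted p = 0.784), and whether these genes differed from each other in the comparison was not tested.

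The make-up of the Krtap counts separated LowAhR+AD from LowAhR+AD+BJ in some classes and subfamilies, while the summed levels overlapped. High glycine-tyrosine genes made up 48.8%, 57.1%, 51.7% and 57.6% of the Krtap counts in LowAhR+AD and 69.1%, 63.9%, 59.0% and 60.9% in LowAhR+AD+BJ. High sulfur genes made up 36.7% to 44.3% and 27.2% to 35.6%. Neither class overlapped between the groups, with or without LowAhR+AD replicate 1, and ultra-high sulfur genes did overlap, with 5.07% to 6.62% and 3.67% to 5.41%. Shares within a library sum to 100%, and these classes held most of the counts. A higher share of either therefore lowers the other, and their separations are not independent. The same holds for the subfamily shares. Of 25 subfamilies, 3 had a higher and 3 a lower share in all LowAhR+AD+BJ libraries than in all LowAhR+AD libraries. No such count was made for shares of other genes, so whether it is unusual cannot be told. Subfamily 6 had 3.29% to 9.24% against 10.4% to 16.3%, subfamily 22 had 2.16% to 6.08% against 7.35% to 7.60% and subfamily 16 had 3.19% to 5.33% against 5.69% to 6.23%. Without LowAhR+AD replicate 1, the low ends in LowAhR+AD were 6.12%, 5.55% and 4.60%. On the other side, subfamily 10 had 0.702% to 1.66% against 0.225% to 0.477%, subfamily 2 had 0.325% to 2.28% against 0.207% to 0.262% and subfamily 31 had 0.145% to 0.332% against 0.0155% to 0.133%. Without that library the high ends in LowAhR+AD were 1.25%, 0.569% and 0.319%, and subfamily 3 was then the fourth that was lower in LowAhR+AD+BJ, with 12.0% to 15.9% against 4.80% to 9.94%. No test was made of these shares, which were chosen among 25 subfamilies after their values were seen. The 2 rows of subfamily 16 went opposite ways. Krtap16-3 had a mean of 1259 CPM in LowAhR+AD and 2240 CPM in LowAhR+AD+BJ, and Krtap16-1 had 107.8 and 68.7 CPM. In LowAhR, 3 of the 4 libraries lay above all LowAhR+AD libraries in the share of subfamilies 6, 22 and 16. Subfamily 2 had 0% to 0.291% in LowAhR, under the whole LowAhR+AD range. LowAhR replicates 1, 2 and 4 lay under the LowAhR+AD ranges of subfamily 10 (0.394%, 0.432% and 0.549%) and subfamily 31 (0.0654%, 0% and 0.106%). LowAhR replicate 3 lay within both (1.297% and 0.212%). The high glycine-tyrosine share was 35.9% to 64.5% in LowAhR, where replicate 2 held only 694 Krtap counts.

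**Figure D4:**
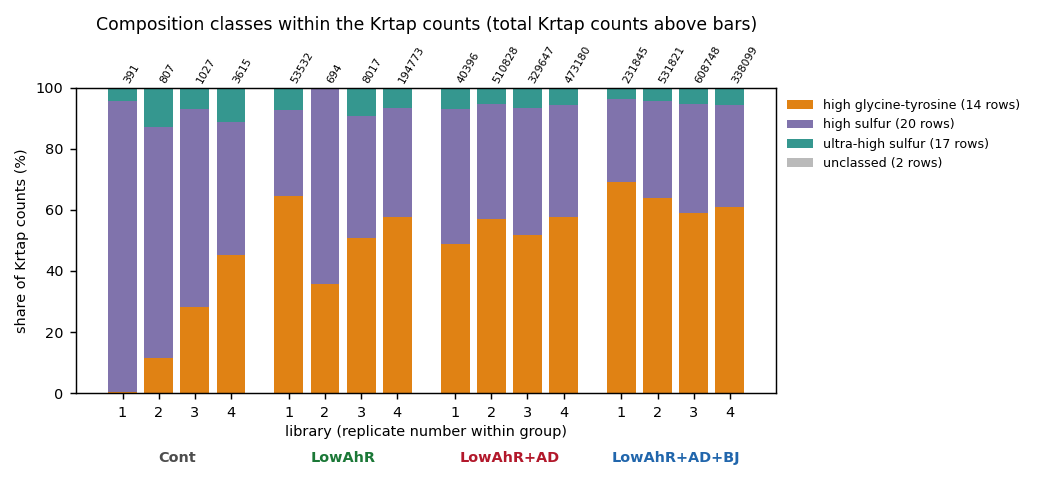
Share of the Krtap counts (vertical, %) taken by each composition class in each library, with the number of Krtap counts above each bar. The high glycine-tyrosine share is 59.0% to 69.1% in LowAhR+AD+BJ and 48.8% to 57.6% in LowAhR+AD, and bars of Cont rest on only 391 to 3615 counts.

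**Figure D5:**
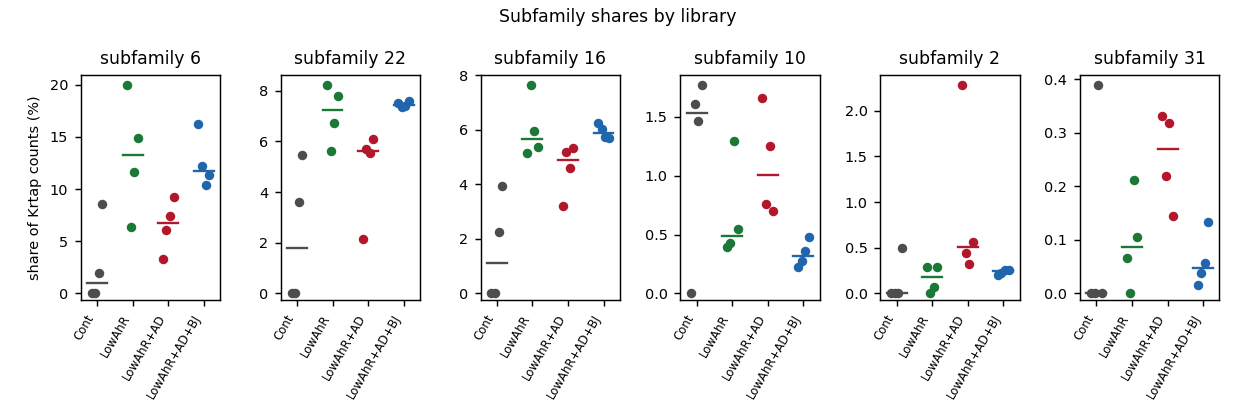
Share of the Krtap counts (vertical, %, a separate scale in each panel) taken by the 6 subfamilies whose shares did not overlap between LowAhR+AD and LowAhR+AD+BJ; points are libraries and lines are medians. Subfamilies 6, 22 and 16 lie higher and 10, 2 and 31 lower in LowAhR+AD+BJ.

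Relative to the hair shaft keratins, Krtap transcripts were more abundant in LowAhR+AD+BJ than in LowAhR+AD. The summed Krtap CPM per summed hair shaft keratin CPM was 1.94 to 3.35 in Cont, 3.05 to 4.92 in LowAhR, 1.34 to 3.01 in LowAhR+AD and 4.40 to 7.24 in LowAhR+AD+BJ. The LowAhR+AD range lay below that of LowAhR+AD+BJ and, narrowly, below that of LowAhR. The LowAhR and LowAhR+AD+BJ ranges overlapped, and no test was made of this ratio. Krt81 alone had a mean of 5970 of the 10920 CPM of hair shaft keratins in LowAhR+AD and 4174 of 7648 CPM in LowAhR+AD+BJ. Of the 14 tested hair shaft keratins, 12 had a downward and 2 an upward fitted difference in LowAhR+AD+BJ against LowAhR+AD, with a median log2 fold change of -0.49, and 0 passed the threshold.

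In LowAhR+AD+BJ against LowAhR, all 49 fitted differences were upward (7483 of all 14854 tested rows) and none passed the threshold. Of all tested rows, 6.77% were called and 3.64% were higher. The median log2 fold change was 2.00, and 12 members had an unadjusted p under 0.05 (22.2% of all rows). In 15 members, 10 of them high glycine-tyrosine genes, all LowAhR+AD+BJ libraries lay above all LowAhR libraries, as they did in 8.91% of all tested rows. Krtap22-2, of that class, had 595, 4.99, 70.1 and 1806 CPM in LowAhR and 1586, 3977, 3495 and 2591 CPM in LowAhR+AD+BJ, with a narrow overlap from LowAhR replicate 4. Krtap5-2 had the lowest adjusted p, 0.0919 from edgeR, with a log2 fold change of 3.16 ± 1.10 and no overlap. Without LowAhR replicate 4, 8 members rose (6.96% of all tested rows called). Limma voom called 8 (6.77%), DESeq2 called 0 (11.3%) and a fit of only these 8 libraries called 1 (8.66%). This comparison and LowAhR+AD against LowAhR share the LowAhR libraries, so their values are not independent. Among markers of other skin cells, 3 of 5 for adipocytes fell (summed 4709 to 8746 CPM in LowAhR and 1753 to 2743 CPM in LowAhR+AD+BJ), 1 of 4 for dermal fibroblasts fell (27610 to 53270 and 10660 to 19430 CPM, with all 4 lower without overlap), and of 5 for the epidermis between follicles 1 rose and 1 fell (4371 to 5564 and 5391 to 9359 CPM). Of 4 tested sebaceous gland markers 1 rose, and 0 of 7 skeletal muscle markers were called (6227 to 16410 and 1980 to 7404 CPM). Their part in the result was not tested.

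Among high glycine-tyrosine genes, subfamily 19 was the largest with 6 rows. Its summed level was 0, 0, 5.55 and 31.01 CPM in Cont, 1084, 6.40, 132 and 4003 CPM in LowAhR, 224, 9334, 5059 and 8363 CPM in LowAhR+AD and 5285, 12020, 9662 and 6574 CPM in LowAhR+AD+BJ. In LowAhR+AD replicate 1 it took 7.28% of the Krtap counts, against 19.7% to 22.3% in the other 3 libraries of that group. Krtap19-4 had 0.0763 CPM there, which was 1 count, and 600.6, 257 and 442 CPM in the others. Subfamily 6 (Krtap6-1, Krtap6-2 and Krtap6-5) behaved likewise in that library, with 101.4 CPM against 1893 to 3510 CPM. Krtap7-1 did not follow them. It had 166 CPM in LowAhR+AD replicate 1, more than the 125 CPM of replicate 3, and its adjusted p in LowAhR+AD against Cont was 0.000851 from edgeR. Krtap21-1 had 2.90, 433, 334 and 468 CPM in LowAhR+AD and 556, 724, 510 and 424 CPM in LowAhR+AD+BJ. Krtap20-2 varied widely within groups, with 5.04, 2.13, 8.78 and 58.1 CPM in LowAhR+AD and 77.8, 66.8, 32.1 and 1.41 CPM in LowAhR+AD+BJ.

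Among high sulfur genes, subfamily 3 took a larger share in Cont than in the libraries with DNCB. It held 95.1%, 68.2%, 44.2% and 17.7% of the Krtap counts in Cont and 7.64%, 46.5%, 15.9% and 12.5% in LowAhR, against 4.80% to 15.9% in the 8 libraries with DNCB. Krtap3-2 made up most of it in Cont replicates 1 to 3, with 44.0, 60.6, 40.8 and 35.0 CPM in Cont, 131.8, 36.6, 51.0 and 506 CPM in LowAhR, 80.1, 901.5, 654 and 859 CPM in LowAhR+AD and 212, 627, 918 and 419.9 CPM in LowAhR+AD+BJ. It differed from its neighbours on chromosome 11, since Krtap3-1 had 0, 1.03, 3.46 and 11.6 CPM and Krtap3-3 3.72, 9.43, 11.7 and 29.9 CPM in Cont. No annotated gene overlapped Krtap3-2, and none of the 75-base windows in the last 300 bases of its transcript occurred in another annotated gene. Its log2 fold change against Cont in LowAhR+AD was 3.79 ± 0.79 (edgeR adjusted p = 0.00267), the smallest of the 49.

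Krtap15 rose from 0, 0, 0.740 and 5.99 CPM in Cont to 23.4, 2830, 2099 and 2671 CPM in LowAhR+AD, a log2 fold change of 10.12 ± 2.07 (edgeR adjusted p = 0.00239), and had 1490, 4574, 4698 and 2503 CPM in LowAhR+AD+BJ. Krtap16-3 had 25.8, 2009, 1062 and 1938 CPM in LowAhR+AD and 1283, 3194, 2635 and 1846 CPM in LowAhR+AD+BJ. Krtap11-1 also had its lowest LowAhR+AD level in replicate 1, with 429 CPM against 974 to 1753 CPM in the other libraries of the group. Its share of the Krtap counts was higher there, with 13.9% against 2.76% to 4.18%. Krtap1-5, Krtap2-4, Krtap13-1, Krtap14, Krtap24-1 and Krtap26-1 rose in LowAhR+AD against Cont with log2 fold changes of 6.73 to 7.94. Krtap10-10 and Krtap12-1 rose by 5.86 and 4.98. Both overlap Tspear on the same strand, and whether the counting used strand was not given in the sources used here.

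Ultra-high sulfur genes were less abundant, with a summed level of 204, 2124, 1635 and 2111 CPM in LowAhR+AD and 777, 2359, 2531 and 1846 CPM in LowAhR+AD+BJ. Subfamily 4, with 8 rows, made up most of it. Krtap4-16 had 65.9, 461, 342 and 382 CPM in LowAhR+AD and rose against Cont by a log2 fold change of 6.07 ± 1.33 (edgeR adjusted p = 0.00366). All 75-base windows in the last 300 bases of Krtap4-13 also occurred in Gm11554 or Gm11569, so its values are uncertain. Krtap9-3 had 13.5, 584.5, 294 and 580 CPM in LowAhR+AD and 292, 869, 679 and 542 CPM in LowAhR+AD+BJ. Krtap17-1 had 2.18, 1.55, 0 and 4.07 CPM in Cont and 38.9, 137.5, 162 and 129.6 CPM in LowAhR+AD (log2 fold change 5.89 ± 1.15, edgeR adjusted p = 0.00169). The genes of subfamily 5 on chromosome 7 stayed under 51 CPM in every library and took 0.0% to 1.25% of the Krtap counts. From LowAhR to LowAhR+AD, the medians of the log2 fold change were 3.06 for the 4 tested genes on chromosome 7, 2.34 for the 3 on chromosome 10, 1.78 for the 21 on chromosome 11 and 1.90 for the 21 on chromosome 16.

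The summed hair shaft keratins, inner root sheath genes and other shaft genes had their lowest group mean in Cont and the next in LowAhR. The Krtap sum had the same order there, but the order of the DNCB groups differed. Mean summed CPM was 27150 in LowAhR+AD and 39190 in LowAhR+AD+BJ for Krtap, against 10920 and 7648 for hair shaft keratins. Of all tested rows, 12.3% rose in LowAhR+AD against Cont and 6.42% in LowAhR+AD against LowAhR. Of the hair shaft keratins, 13 of 14 tested rose in LowAhR+AD against Cont (median log2 fold change 6.70), and 1 of 14, Krt32, rose against LowAhR. None was called in LowAhR against Cont or in LowAhR+AD+BJ against LowAhR+AD. All 8 tested genes of the inner root sheath, the layer that moulds the growing shaft, rose in LowAhR+AD against Cont (median 5.89), among them Tchh with 4.78 (edgeR adjusted p = 0.00695), and 0 were called in the other comparisons. Of 6 other tested shaft genes, 5 rose in LowAhR+AD against Cont, among them Gprc5d with 9.14 and S100a3 with 6.82, and Mt4 with 0.92 did not pass (edgeR adjusted p = 0.146). Lrrc15 rose in LowAhR+AD and in LowAhR+AD+BJ against LowAhR (adjusted p = 0.0429 and 0.0443 from edgeR).

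Regulators of the hair matrix and shaft moved less. Of 12 tested, 6 rose and 1 fell in LowAhR+AD against Cont, where 12.3% of all tested rows rose. Against LowAhR 3 rose, where 6.42% of all tested rows did. Hoxc13, a homeobox factor known to drive hair keratin genes, had 7.88 CPM in Cont, 16.1 in LowAhR, 72.4 in LowAhR+AD and 41.6 in LowAhR+AD+BJ, as means of 4 libraries, and rose by 2.17 on the log2 scale from LowAhR to LowAhR+AD (edgeR adjusted p = 0.0246). Dlx3 and Ovol1 rose by 1.46 and 1.00 in the same comparison (adjusted p = 0.0454 and 0.0217 from edgeR). Foxn1, which is needed for hair shaft differentiation, had 2.04 (adjusted p = 0.055) against LowAhR and rose by 2.18 against Cont (edgeR adjusted p = 0.0283). Gata3, a factor of the inner root sheath that other skin cells also express, was the 1 that fell against Cont, with -1.18 (edgeR adjusted p = 0.0136), and it also fell in LowAhR+AD+BJ against LowAhR, with an edgeR adjusted p of 0.0461. With BJIKT against LowAhR+AD, 0 of the 12 were called.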

How the data were processed

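Dorsal skin RNA of 16 mice, 4 per group, had been made into QuantSeq libraries and read from a single end on a NextSeq 500. The authors deposited whole-number counts per gene symbol for each library. The submitters' processing notes name mm10, Bowtie2 and bedtools, and the study names ExDEGA. The annotation, how reads matching more than 1 gene were handled, and the filters were not given in the sources used here.

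Groups and replicate numbers came from the sample labels. The test was that of edgeR 4.0.16 under R 4.3.3 (filterByExpr at its defaults of 10 counts and 15 in total, TMM, glmQLFit and glmQLFTest, all 16 libraries in 1 model with the group as the only term). Benjamini-Hochberg adjustment ran over all 14854 tested rows, and a row was called at an adjusted p under 0.05. Beside it, log2 CPM with a prior count of 2 was compared by exact permutation (two-sided), and 4 libraries against 4 allow no p below 0.0286. A count of 0 was read as allowing 3 counts. The script was first tested on simulated data. Library totals were 7080508 to 13467477 counts. No source names separate cultures or pools beyond 1 library per mouse, and p-values measure the spread between these mice.

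The members and lists were chosen with earlier results of these data known. Genes were named by a rule, which took the most abundant tested row of each subfamily, the 6 most abundant rows and, in each comparison with calls, the 3 members with the lowest adjusted p. Krtap3-1, Krtap3-2, Krtap9-1, Krtap19-4, Krtap19-5, Krtap4-13, Krtap6-1, Krtap16-1 and other members outside the rule were named after their values had been seen. Alternatives were RLE and upper-quartile factors, scaling without follicle genes, DESeq2 1.42.0, limma 3.58.1 (voom), no filter, a stricter filter, only the 8 libraries compared, a replicate block and each library left out. Replicate numbers did not pair the libraries. Protein sequences were not used here. Promoter sequences and positions are from RefSeq on GRCm38.p6, and transcript ends from GENCODE M21.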

Additional observations from a re-analysis of the deposited data

Results flagged for a closer look

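The highest or the lowest library of a group stood apart from the other 3 (Dixon's test at the 95% level, CPM) in 20 of 132 groups of values tested over the 28 named genes and the sums. Chance alone marks about 1 in 20, the tests share libraries, and the linear scale favours high values. In Cont, replicate 4 was the high library for Krtap2-4 (2.16 CPM), Krtap5-2 (4.55), Krtap6-5 (17.5), Krtap12-1 (4.31), Krtap13-1 (8.02), Krtap14 (14.5), Krtap15 (5.99), Krtap16-3 (13.1) and Krtap21-1 (8.86), with at most 1.97 CPM in the other 3 libraries of each gene. Cont replicate 3 was the high library for Krtap24-1 (1.36 CPM), Krtap31-1 and the sum of subfamily 31 (both 0.494) and Krtap1-3 (0.123), where the others had no count. In LowAhR, replicate 4 was the high library for Krtap3-3 (1701 CPM against at most 285), Krtap24-1 (50.4 against at most 7.03), Krtap31-1 (21 against at most 3.52) and Krtap5-3 (0.239 against 0). In LowAhR+AD, replicate 4 had 58.1 CPM of Krtap20-2 against 2.13 to 8.78. In LowAhR+AD+BJ, replicate 1 was the low library for Krtap17-1 (57.4 CPM against 122 to 135) and Krtap1-3 (51.3 against 225 to 239.9).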

How the results depend on the processing

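With RLE or upper-quartile factors, with follicle genes out of the scaling, or with no filter on low counts, the number of Krtap genes called was 0, 3, 48, 0 and 0 in LowAhR against Cont, in LowAhR+AD against first LowAhR and then Cont, and in LowAhR+AD+BJ against first LowAhR+AD and then LowAhR, as reported. DESeq2 moved it to 38 in LowAhR against Cont (3.31% of all tested rows called). Limma voom moved it to 10 in LowAhR+AD against LowAhR (14.1% of all tested rows called). With that tool it was 8 in LowAhR+AD against Cont (21.6%) and 8 in LowAhR+AD+BJ against LowAhR (6.77%). At least 10 counts in every library left 2 members to test, of which 0 were called in LowAhR+AD against LowAhR and 2 in LowAhR+AD against Cont. Only the 8 libraries compared gave 5 in LowAhR against Cont (1.84% of all tested rows called). They gave 1 in LowAhR+AD against LowAhR (5.49%) and 1 in LowAhR+AD+BJ against LowAhR (8.66%). The replicate block gave 5 in LowAhR+AD against LowAhR (11.4% of all tested rows called) and the reported counts elsewhere. Replicate numbers mark no shared source in the labels, and 3 of 24 same-numbered pairs correlated above 0.1 (r -0.05 to 0.17), so the libraries share only a number. With 1 library left out, the counts ranged from 0 to 36, 0 to 20, 46 to 49, 0 to 0 and 0 to 8 in the order above. The cause of these moves was not tested, except that fewer members could be tested under the stricter filter. The summed levels on raw totals or without Rn45s moved by less than the spread within each group.

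Differences near 0 changed sign. In LowAhR+AD+BJ against LowAhR+AD, limma voom gave log2 fold changes of 0.20 for Krtap3-3, 0.11 for Krtap4-16, 0.083 for Krtap12-1, 0.043 for Krtap17-1 and 0.23 for Krtap24-1, and the replicate block gave 0.085 for Krtap4-16 and 0.040 for Krtap24-1. With 1 library left out in the same comparison, the range was -0.21 to 0.49 for Krtap1-5, -0.66 to 0.041 for Krtap3-3, -0.37 to 0.28 for Krtap4-16, -0.20 to 0.43 for Krtap11-1, -0.44 to 0.19 for Krtap12-1, -0.16 to 0.54 for Krtap13-1, -0.37 to 0.15 for Krtap17-1, -0.46 to 0.20 for Krtap24-1 and -0.46 to 0.19 for Krtap5-4. In LowAhR+AD against LowAhR it was -0.21 to 1.52 for Krtap6-5 and -1.39 to 1.17 for Krtap20-2.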
